A study of Mus musculus with 4 samples.

Results

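The 7 genes that set or mark the cartilage and calcification programme of the vessel wall (Sox9, Runx2, Trps1, Mgp, Enpp1, Chad and Cytl1) were followed in cells of the mouse ascending aorta. The list was chosen with earlier results of these data known, and all 7 were found among the 18112 genes common to the 3 count files used. Counts of members called are thus a description, and were not tested against the share of all genes. Cells were assigned by their own UMIs (unique molecular identifiers, each a captured transcript). A smooth muscle cell had at least 5 UMIs of Myh11, the smooth muscle myosin heavy chain, and 0 of Pdgfra, a fibroblast receptor. A fibroblast had at least 1 Pdgfra UMI and at most 2 of Myh11. Smooth muscle cells were further split by Acan, the gene of aggrecan, into cells with at least 1 Acan UMI and cells with 0.

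The study asked how the response to angiotensin II (AngII), a hormone that raises blood pressure, differs with the embryonic origin of ascending aortic cells. All samples came from male Mef2c-mTmG mice, in which a recombinase driven from Mef2c sequences switches on a membrane reporter. Living single cells were sorted by that lineage mark before droplet capture with 3′ v3 chemistry, so the sort depends on where and how completely the driver was active. The libraries were SHF baseline (second heart field lineage, no infusion), SHF AngII (the same lineage after 3 days of infusion) and CNC AngII (a lineage that the labels do not spell out, after the same infusion). The labelled CNC baseline sample was not analysed here, and the age and number of mice per library are not given in the sources used here. With 1 library per group no difference has a replicate check, and a difference between conditions cannot be told apart from a difference between libraries. The 95% intervals below cover counting error only.

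Sox9 encodes the transcription factor that commits cells to cartilage, Runx2 the one that commits cells to bone and to hypertrophic cartilage, and Trps1 a GATA-type repressor active in growing cartilage. Against mineral stand Mgp, whose vitamin K-dependent product keeps arteries and cartilage from calcifying, and Enpp1, an ectoenzyme that makes pyrophosphate, a brake on crystal growth. Chad (chondroadherin) and Cytl1 (cytokine-like 1) encode secreted products of cartilage.

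Filtering left 8374, 9299 and 10194 cells in the SHF baseline, SHF AngII and CNC AngII libraries, at median depths of 10315.5, 13325 and 12609.5 UMIs, and values given as lists of 3 below keep that order. Smooth muscle cells numbered 2259, 4649 and 6385 in that order, and fibroblasts 3939, 2640 and 842. At least 1 Acan UMI was found in 344, 1731 and 4204 of the smooth muscle cells. Between 29 and 34 barcodes were shared by any pair of libraries. Summed smooth muscle markers stood at 56389, 63656 and 57264 CPM (the UMIs of a list or gene scaled to a common total per profile) in smooth muscle cells and at 1291 to 4054 CPM in fibroblasts. Summed fibroblast markers stood at 12487 to 27713 CPM in fibroblasts and 1187 to 1439 CPM in smooth muscle cells, where Dcn, one of them, was found in 51.1%, 33.4% and 8.4% of cells. The summed chondrocyte markers were at 10.2 to 21.4 CPM in smooth muscle cells and 120 to 247 CPM in fibroblasts. Of 6 chondrocyte markers, Matn1 and Cnmd were at 0 UMIs in both cell types of SHF baseline and in SHF AngII smooth muscle cells. Col2a1 was also at 0 in baseline smooth muscle cells. Matn1 alone was at 0 in both cell types of CNC AngII, and SHF AngII fibroblasts held UMIs of every marker. The remaining markers, Col9a1, Comp and Hapln1, were found in both cell types of every library.

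Sox9 (chr11:112782224-112787760, plus strand, GRCm38) was present in both cell types of every library. In smooth muscle cells it stood at 33.5 CPM in SHF baseline (95% interval 31.4 to 35.7), 26.7 in SHF AngII (25.5 to 28.0) and 31.0 in CNC AngII (29.8 to 32.1). The values in fibroblasts were 71.8 CPM (69.1 to 74.5), 37.7 (36.0 to 39.6) and 37.6 (34.2 to 41.4). Baseline fibroblasts were thus highest, and the fibroblasts of the AngII libraries did not differ beyond counting error. A Sox9 UMI was found in 18.4%, 18.0% and 18.7% of smooth muscle cells and in 29.4%, 28.9% and 24.8% of fibroblasts. After each cell was thinned to 5000 UMIs these shares were 10.9%, 8.69% and 9.08%, and 21.9%, 12.9% and 12.2%. As a background for free RNA, 0.414% of the 1450 leukocytes of CNC AngII (cells with Ptprc, median depth 11519.5 UMIs) had a Sox9 UMI, below either cell type of that library, whose median depths were 13450 UMIs in smooth muscle cells and 12379.5 in fibroblasts.

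Runx2 (chr17:44495987-44814797, minus strand) was sparse. It gave 21, 36 and 46 UMIs in the smooth muscle cells of SHF baseline, SHF AngII and CNC AngII, or 0.711, 0.518 and 0.480 CPM. Only 0.841%, 0.688% and 0.658% of these cells held a UMI, against 1.52% of CNC AngII leukocytes. Whether the leukocyte UMIs are free RNA or expression was not tested, and the SHF libraries held only 11 and 17 leukocytes, so the smooth muscle UMIs are not read as expression. Fibroblasts held 231, 144 and 51 UMIs, or 6.09 CPM (5.33 to 6.93), 3.21 (2.70 to 3.78) and 4.45 (3.32 to 5.85), in 5.08%, 4.81% and 5.58% of cells. Its exons overlap those of Runx2os1 on the other strand, and whether counting used strand is not given in the sources used here.

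Trps1 (chr15:50654752-50890463, minus strand) was the regulator whose level differed most between the SHF libraries. Its level in smooth muscle cells was 35.9 CPM in SHF baseline (33.7 to 38.1), 16.6 in SHF AngII (15.7 to 17.6) and 15.1 in CNC AngII (14.3 to 15.9). In fibroblasts it was 54.0 CPM (51.6 to 56.3), 14.6 (13.5 to 15.8) and 16.5 (14.2 to 19.0). The baseline library was high in both cell types, and all 4 AngII values lay between 14.6 and 16.6 CPM. Thinned to 5000 UMIs, a Trps1 UMI was found in 16.9%, 8.91% and 7.20% of smooth muscle cells and in 18.9%, 7.27% and 8.97% of fibroblasts. Leukocytes of CNC AngII stood at 62.7 CPM and the few endothelial cells (cells with Pecam1 and Cdh5) at 91.3, 49.2 and 13.8 CPM, so neither serves as a background for this gene.

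Mgp (chr6:136872435-136875823, minus strand) was present in at least 97.1% of the cells of either type. Its level in smooth muscle cells was 5146 CPM at baseline, 7741 CPM in SHF AngII and, highest, 9798 CPM in CNC AngII. Fibroblasts held 12364, 26949 and 29008 CPM, above the smooth muscle cells of the same library each time, and each interval of counting error lay within 1% of its value. Leukocytes of CNC AngII had 168 CPM, and 49.8% of them still had an Mgp UMI after thinning, so a single UMI does not mark an Mgp-expressing cell and only levels are compared.

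The level of Mgp per cell spread more widely in the AngII libraries, with the same smooth muscle median. At 5000 UMIs the median smooth muscle cell held 17 Mgp UMIs in every library. The 90th percentile was 55 UMIs at baseline, 83 UMIs in SHF AngII and 93 UMIs in CNC AngII, whereas the 10th was 5, 3 and 3. The 10% of smooth muscle cells richest in Mgp held 37.8%, 56.5% and 63.0% of its smooth muscle UMIs. The higher summed level of the AngII libraries thus lay in the upper tail of cells. Fibroblasts differed at the centre as well, with medians of 42, 99 and 96 UMIs and 90th percentiles of 139, 328.4 and 362.8.

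**Figure D1:**
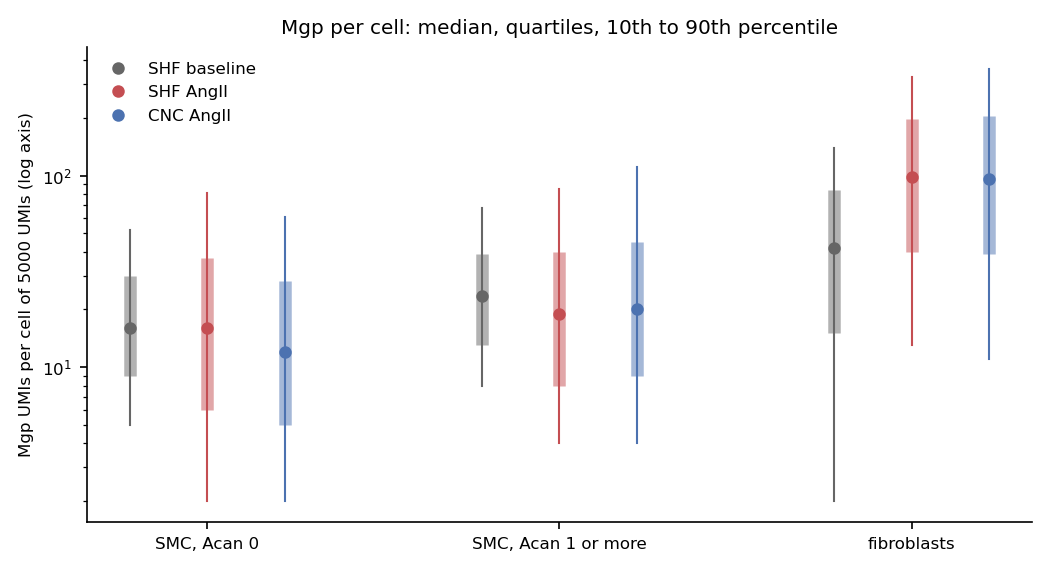
Mgp UMIs per cell after each cell was thinned to 5000 UMIs, by cell type and library: points are medians, thick bars run between the quartiles and thin bars from the 10th to the 90th percentile of cells. Medians are 16, 16 and 12 in smooth muscle cells without Acan, 23.5, 19 and 20 in those with it, and 42, 99 and 96 in fibroblasts, and the upper percentiles are highest in fibroblasts of the AngII libraries.

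Enpp1 (chr10:24637914-24712159, minus strand) differed little between the SHF libraries. Smooth muscle cells held 20.4 CPM in SHF baseline (18.8 to 22.1), 19.2 in SHF AngII (18.2 to 20.2) and 26.2 in CNC AngII (25.2 to 27.3). The fibroblast values were 15.8 CPM (14.5 to 17.1), 14.6 (13.5 to 15.8) and 22.4 (19.7 to 25.3). In both cell types CNC AngII was highest, beyond counting error, and the SHF libraries overlapped. A UMI was found in 21.9%, 21.3% and 28.3% of smooth muscle cells and 11.4%, 17.4% and 21.6% of fibroblasts, against 47.7% of CNC AngII leukocytes, which held 77.4 CPM. Endothelial cells held 1, 0 and 1 Enpp1 UMIs in 49, 30 and 33 cells.

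**Figure D2:**
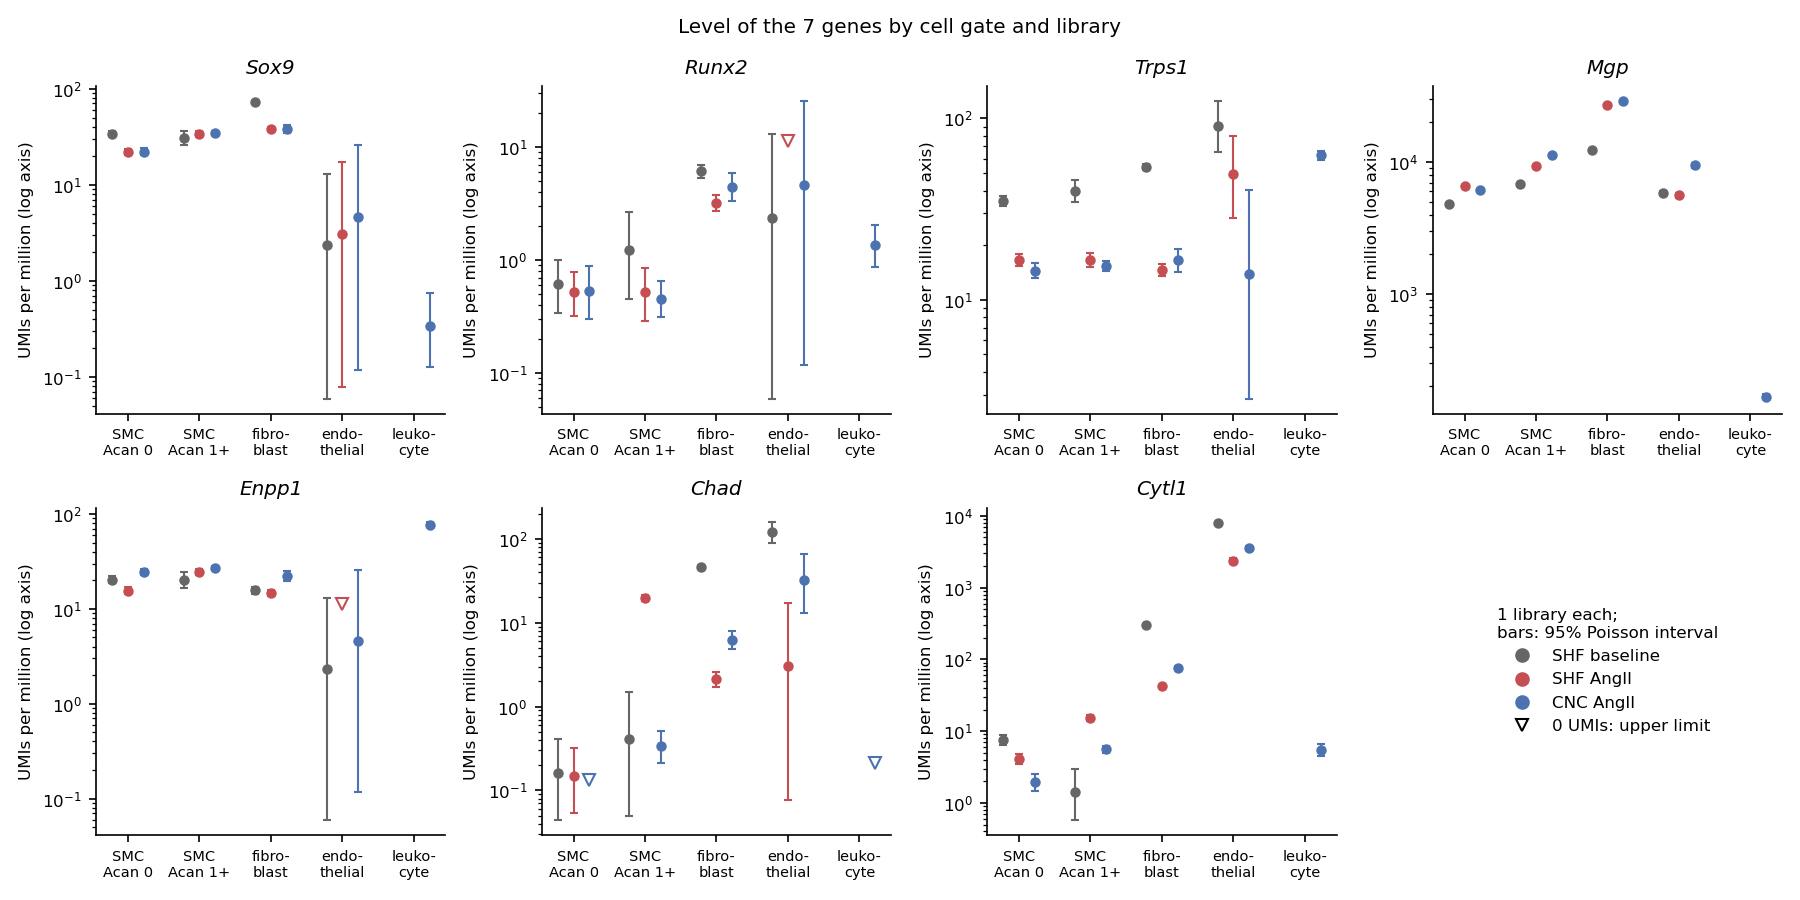
Level of each of the 7 genes (CPM, log axis) in smooth muscle cells without and with Acan UMIs, fibroblasts, endothelial cells and, for CNC AngII, leukocytes; colours are libraries, bars are 95% Poisson intervals, and open triangles are upper limits where no UMI was counted. Mgp is higher in fibroblasts than in smooth muscle cells in every library, and Trps1 is higher in SHF baseline than in either AngII library in both cell types.

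The promoters of Chad and Cytl1 are shown because most baseline fibroblasts with a Chad UMI also held Cytl1 (63.6% at 5000 UMIs per cell), although only 7.83% of those with Cytl1 held Chad. Both are the 250 bases before the annotated start on the plus strand, from RefSeq with build GRCm38.p6, and 4 of the 7 members had an entry there. Capitals mark a match to one of 3 short motifs searched on both strands.
Chad (chr11:94564797-94565046): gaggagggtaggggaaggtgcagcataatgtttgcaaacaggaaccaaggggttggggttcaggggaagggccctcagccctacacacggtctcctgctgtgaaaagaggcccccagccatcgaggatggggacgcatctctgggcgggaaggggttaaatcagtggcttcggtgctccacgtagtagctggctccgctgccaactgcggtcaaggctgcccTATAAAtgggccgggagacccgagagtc
Cytl1 (chr5:37735269-37735518): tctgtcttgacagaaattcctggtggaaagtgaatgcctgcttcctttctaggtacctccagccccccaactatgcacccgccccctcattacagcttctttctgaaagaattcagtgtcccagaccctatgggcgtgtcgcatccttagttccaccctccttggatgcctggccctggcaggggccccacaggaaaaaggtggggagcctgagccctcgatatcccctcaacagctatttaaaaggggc
The Chad promoter, with a G and C content of 60.4%, holds TATAAA 28 bases before the start, and that motif occurs on either strand in 12.4% of all 32851 promoters of this length. Neither promoter holds ACAAAG, a core of SOX sites found in 16.5% of promoters, nor TGTGGT, a core of RUNX sites found in 14.0%, each again on either strand. The RUNX core occurs once in the Runx2 and once in the Enpp1 promoter, 80 and 144 bases before the RefSeq start. For Runx2 that start differs from the gene coordinates given above. Its stretch (chr17:44814628-44814877) lies partly inside those coordinates, the match included. Sox9, Mgp and Trps1 had no entry. These are matches of letters, and no binding was measured.

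Chad (chr11:94565047-94569127) was found in very few cells of either type. Fibroblasts held 1749 Chad UMIs at baseline, 96 UMIs in SHF AngII and 72 UMIs in CNC AngII, or 46.1, 2.14 and 6.29 CPM, from 77, 30 and 3 cells. Smooth muscle cells held 6, 578 and 23 UMIs, or 0.203, 8.32 and 0.240 CPM, from 6, 11 and 3 cells. The high values were those of baseline fibroblasts and of SHF AngII smooth muscle cells. In the latter, 3 of 4649 cells, with a median of 37552 UMIs, held 98.6% of the Chad UMIs, and 342 of them lay in 1 cell. In SHF AngII these 3 smooth muscle cells also held 7400 CPM of Comp, 5940 of Spp1, 3659 of Cytl1 and 511 of Col2a1, a collagen of cartilage. Whether they are single cells or captures of more than 1 cell was not tested. No Chad UMI was found in 1450 leukocytes of CNC AngII, which allows a share of up to 0.207% of cells with a UMI.

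In baseline fibroblasts 36 cells (0.914%) had at least 5 Chad UMIs and held 96.0% of the gene's fibroblast UMIs. Every other member was also higher in them, as a description of cells chosen by Chad. Sox9 stood at 237 CPM in these cells and 69.3 in the remaining fibroblasts, Runx2 at 27.3 and 5.78, and Trps1 at 317 and 50.1. Mgp stood at 32432 and 12069 CPM, Enpp1 at 61.9 and 15.1, and Cytl1 at 3882 and 251. The cartilage matrix gene Comp was at 4226 against 90.4 CPM, and the tendon and ligament regulator Scx at 222 against 12.5. The adventitial marker Pi16 was lower in them, at 446 against 3455 CPM. Acan was found in 7 of the 36 cells, Col2a1 in 3, and Cnmd and Tnmd in 0. The fibroblasts of SHF AngII held 7 such cells, with 67.7% of the gene's UMIs, and those of CNC AngII 2, with 97.2%. Over all kept cells, 106, 20 and 7 had at least 5 Chad UMIs, or 1.27%, 0.22% and 0.07%. In SHF baseline 62.5% of all Chad UMIs and 41.0% of all Cytl1 UMIs lay in cells outside every cell type named here, which made up 25.3% of the kept cells.

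Cytl1 (chr5:37735519-37739820, plus strand) was a fibroblast and endothelial transcript. Fibroblasts held 304 CPM in SHF baseline (298 to 310), 42.2 in SHF AngII (40.3 to 44.1) and 76.7 in CNC AngII (71.8 to 82.0), with a UMI in 15.4%, 8.48% and 9.50% of cells. Endothelial cells, of which there were only 49, 30 and 33, held 7827, 2380 and 3555 CPM. Summed endothelial markers stood at 58.4, 14.0 and 13.9 CPM in fibroblasts and at 4868, 3844 and 4532 CPM in endothelial cells. The part of endothelial RNA in the Cytl1 level of fibroblasts was not tested. Smooth muscle cells held 6.53, 8.69 and 4.53 CPM of Cytl1, with a UMI in 2.04%, 1.48% and 1.72% of cells against 0.414% of CNC AngII leukocytes. By level these leukocytes were not lower than the smooth muscle cells of their library, at 5.51 CPM (4.47 to 6.72), with 99.0% of the UMIs in 5 cells. After thinning, the CNC AngII shares were 0.762% of smooth muscle cells (0.562% to 1.01%) and 0.213% of leukocytes (0.044% to 0.621%), which overlap. The 5 smooth muscle cells richest in Cytl1 held 75.6%, 80.0% and 71.0% of its UMIs there. Among smooth muscle cells with no Dcn UMI, the level was 1.20, 0.817 and 1.77 CPM.

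**Figure D3:**
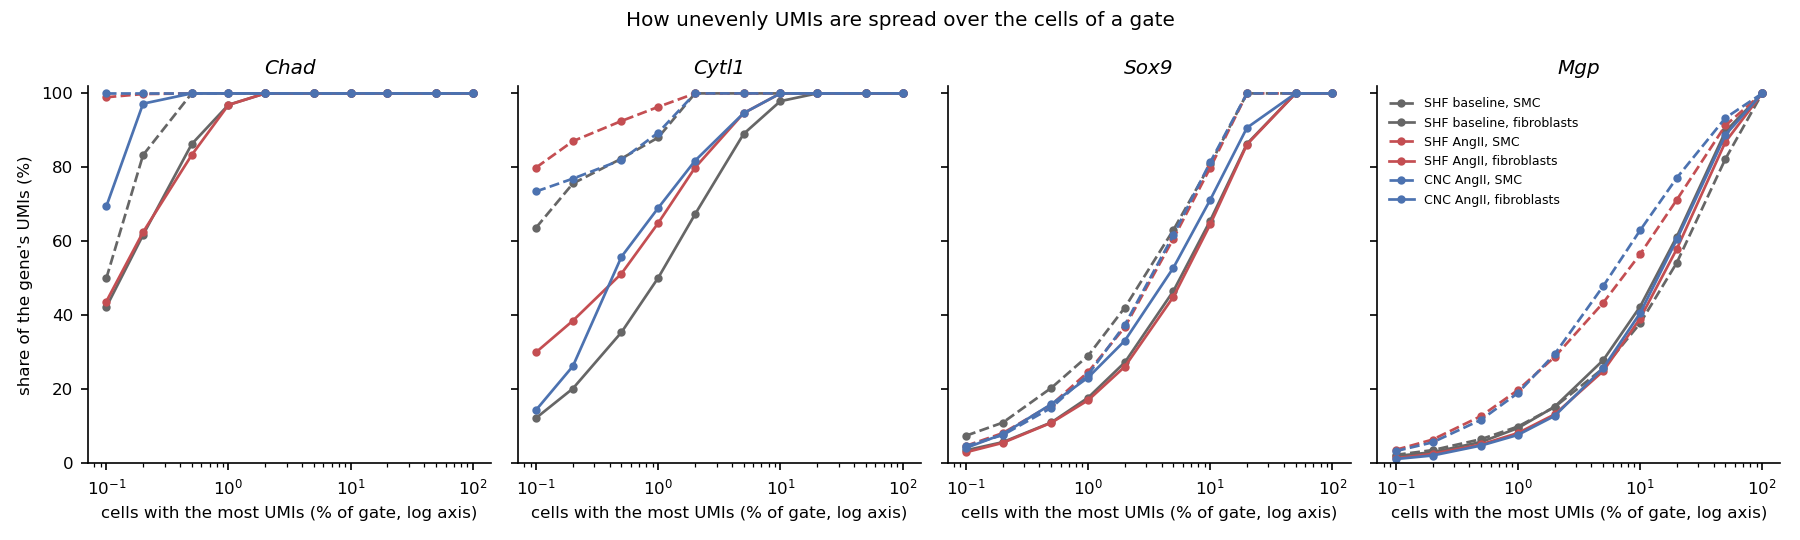
Share of a gene's UMIs (percent) held by the given percent of cells, cells ordered from richest to poorest, for Chad, Cytl1, Sox9 and Mgp; solid lines are fibroblasts, dashed lines smooth muscle cells, colours are libraries. The Chad curves reach all UMIs within 2% of cells, whereas for Mgp the richest 10% of cells hold between 37.8% and 63.0%.

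The first comparison set SHF AngII against SHF baseline, 1 library with and 1 without infusion from the same lineage. A gene is called here when its CPM differed by at least 2-fold with 1 CPM added to both values and the 95% interval of the ratio excluded equality; folds and intervals are given without the added 1. In fibroblasts Mgp was higher and Trps1, Chad and Cytl1 lower, so 4 of 7 members were called, beside 15.3% of all 7694 genes with a mean of at least 10 CPM (4.64% higher and 10.7% lower). Of the members, 6 reached that mean. Mgp was 2.18-fold higher (log2 ratio 1.12, alternatives 1.12 to 1.40), Trps1 3.69-fold lower (-1.81, alternatives -1.82 to -1.38), Cytl1 7.21-fold lower (-2.82, alternatives -3.23 to -1.83) and Chad 21.6-fold lower (-3.91, alternatives -4.03 to -2.21). These 4 calls were each kept under the alternatives of cell filter, cell assignment, depth and scaling. Sox9 was 1.90-fold lower (log2 ratio -0.91) and Runx2 1.90-fold lower (-0.75), both short of the fold used, with Sox9 at -1.03 after thinning. Enpp1 did not differ beyond counting error (-0.10, interval -0.27 to 0.06).

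In smooth muscle cells Trps1 was lower and Chad higher, 2 of 7 members, beside 6.38% of 7001 genes (2.86% higher and 3.53% lower). Of these members only Sox9, Trps1, Mgp and Enpp1 reached the mean of 10 CPM, here and in the other comparisons among smooth muscle cells. Trps1 was 2.16-fold lower (log2 ratio -1.06, interval -1.23 to -0.99), which placed it at percentile 2.81 of all genes tested. It lay at the edge of the fold used, and 6 of its alternatives, among them TMM scaling and -0.78 with 10 CPM added, fell short of it. The Chad value of 2.95 was that of the 3 cells above, and became -0.070 among smooth muscle cells without a Dcn UMI. Mgp had a log2 ratio of 0.59 (percentile 91.3, alternatives 0.28 to 0.76). Sox9 was 1.25-fold lower (-0.31) and Enpp1 was at -0.08 (interval -0.23 to 0.05). Runx2 was at -0.17 from 36 against 21 UMIs, and Cytl1 at 0.36, with alternatives from -0.82 to 3.02.

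Other measures also differed between these libraries. A list of 12 genes that respond to tissue dissociation summed to 12831 CPM in baseline smooth muscle cells and 7728 in those of SHF AngII, and to 17886 and 8857 CPM in fibroblasts. The baseline file also lists fewer genes under older names than both AngII files. The median mitochondrial share was 7.36% in baseline smooth muscle cells and 5.43% in those of SHF AngII. The stricter cell filter, with a limit of 5%, thus left out most of these cells. In fibroblasts that median was 4.09% and 2.82%, at median depths of 9534 and 15485.5 UMIs. The part of any of these differences in the lower Trps1, Cytl1 and Chad values was not tested. The median of all genes was -0.10 in smooth muscle cells and -0.21 in fibroblasts, and TMM scaling moved that median by 0.17 and 0.27. Under it Enpp1 changed sign, to 0.08 and 0.16.

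**Figure D4:**
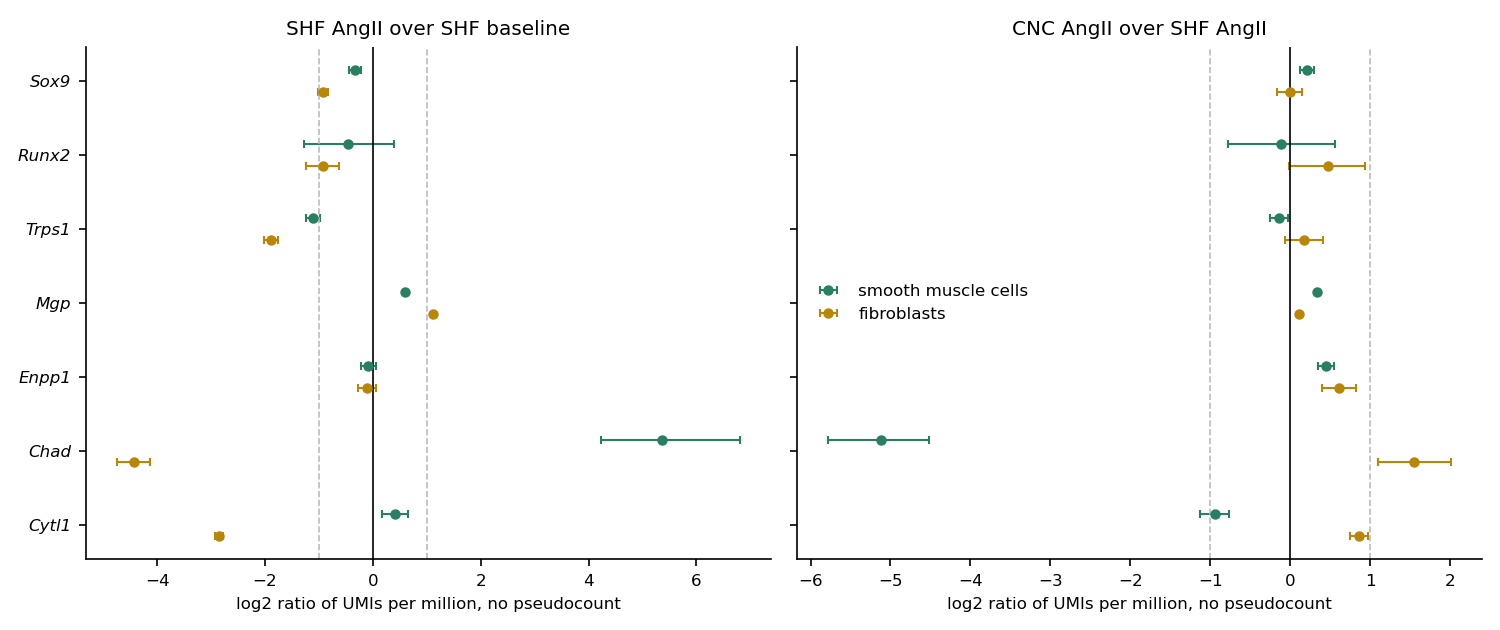
Log2 ratio of each gene, SHF AngII over SHF baseline and CNC AngII over SHF AngII, in smooth muscle cells and fibroblasts, without a pseudocount; bars are 95% conditional binomial intervals of counting error and dashed lines mark 2-fold. Trps1 is lower in SHF AngII in both cell types, Cytl1 is lower in fibroblasts, and for Chad the cell types lie on opposite sides of 0.

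The second comparison set CNC AngII against SHF AngII, 1 library of each lineage after infusion, and so shares the SHF AngII library with the first. Enpp1 and Mgp stood higher in the smooth muscle cells of CNC AngII, and Enpp1 in its fibroblasts, each by less than 2-fold. In smooth muscle cells Chad was lower, 1 of 7 members, beside 0.798% of 6766 genes, and this was again the 3 SHF AngII cells (log2 ratio -2.91, and -0.12 without the 5 richest cells of each library). Enpp1 was 1.37-fold higher (0.43, interval 0.36 to 0.55, percentile 98.2, alternatives 0.31 to 0.50) and Mgp 1.27-fold higher (0.34, percentile 97.3), both below the fold used. The Mgp value was 0.13 in cells of 5000 to 20000 UMIs and 0.44 in those without Dcn. Sox9 was at 0.20, Trps1 at -0.13, Runx2 at -0.04 and Cytl1 at -0.81, which became 0.61 without Dcn.

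In fibroblasts Chad was called higher in CNC AngII, 1 of 7 members, from 72 UMIs in 3 cells against 96 in 30. Beside it, 0.61% of 7216 genes with a mean of at least 10 CPM were called. Chad, at 6.29 CPM in CNC AngII and 2.14 in SHF AngII, did not reach that mean. With no minimum the share was 1.14% of 16652 genes. The Chad ratio turned to -1.68 with stricter cell assignment. Enpp1 was 1.53-fold higher (0.58, interval 0.40 to 0.82, percentile 98.7), in the same direction as in smooth muscle cells. Cytl1 was 1.82-fold higher (0.85, percentile 99.3) but at -0.45 with stricter cell assignment. Sox9 (-0.00), Mgp (0.11), Trps1 (0.16) and Runx2 (0.37) were called in neither direction. Leukocyte markers were higher in the CNC AngII smooth muscle cells, at 222.7 CPM against 1.3, and in its fibroblasts, at 169.3 against 18.8. Without cells holding a Ptprc or Pecam1 UMI, the Enpp1 ratios were 0.39 in smooth muscle cells and 0.57 in fibroblasts.

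The third comparison set smooth muscle cells with Acan against those without, within each library. Mgp was higher with Acan in all 3 libraries, and Sox9 and Enpp1 in both AngII libraries, none of them by 2-fold and Enpp1 in CNC AngII only slightly. Cells with Acan were deeper, at medians of 13203.5, 14966 and 14640 UMIs against 12325, 12319.5 and 11466 in those without. Mgp stood at 4820 CPM without and 6794 with Acan in SHF baseline, 6617 and 9324 in SHF AngII, and 6163 and 11296 in CNC AngII. These log2 ratios of 0.50, 0.49 and 0.87 lay at percentiles 98.9, 99.4 and 99.8 of all genes tested, whose median absolute log2 ratios were 0.10, 0.08 and 0.07. The SHF AngII value ranged from 0.07, in cells of 5000 to 20000 UMIs, to 0.80 with a stricter cell filter, whereas CNC AngII ranged from 0.71 to 0.99 and SHF baseline from 0.39 to 0.62.

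Sox9 stood at 34.0 CPM without and 30.9 with Acan in SHF baseline, a log2 ratio of -0.14 whose interval of -0.40 to 0.11 includes 0. In SHF AngII it stood at 21.8 and 33.7 CPM (0.61, percentile 99.6) and in CNC AngII at 22.1 and 34.6 CPM (0.63, percentile 99.5). The AngII libraries gave nearly the same pair of levels, and their intervals were 0.50 to 0.76 and 0.52 to 0.78. Under all alternatives the value stayed between 0.34 and 0.95 in SHF AngII and between 0.35 and 0.73 in CNC AngII, and at or below -0.02 in SHF baseline. The difference between libraries has no test. Enpp1 was at 20.4 and 20.2 CPM, 15.6 and 24.3 CPM (0.61, percentile 99.6), and 24.3 and 27.0 CPM (0.14, interval 0.02 to 0.28). Its alternatives ran from 0.40 to 0.73 in SHF AngII and from 0.07, after thinning, to 0.28 in CNC AngII. In thinned CNC AngII cells an Enpp1 UMI was found in 10.3% without and 10.8% with Acan, with intervals that overlapped. Trps1 did not separate these cells, with log2 ratios of 0.18, 0.00 and 0.07. The members called were Cytl1 in SHF baseline (lower, -1.81), Cytl1 and Chad in SHF AngII (higher, 1.65 and 4.18) and Cytl1 in CNC AngII (higher, 1.15). These counts of 1, 2 and 1 of 7 stand beside 0.349%, 0.371% and 0.192% of all genes. The calls in the AngII libraries were lost without the 5 richest cells, and none of the 4 was kept among cells without a Dcn UMI.

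The share of smooth muscle cells with an Acan UMI was 15.2%, 37.2% and 65.8%, and 8.22%, 22.9% and 48.4% at 5000 UMIs per cell. Mgp was graded with the number of Acan UMIs at that depth. In CNC AngII it stood at 6312 CPM in the 3252 cells with 0 Acan UMIs, 8639 in 1394 cells with 1, 10746 in 1160 cells with 2 or 3, and 14190 in 497 cells with 4 or more. SHF AngII gave 6837, 8026, 9525 and 11373 CPM over the same steps, from 3540, 629, 332 and 89 cells. SHF baseline gave 5018, 6003 and 9233 CPM from 2032, 145 and 36 cells, with a single cell in the last step. Each step was higher than the one before it in all 3 libraries. Sox9 was higher in CNC AngII cells with 1 Acan UMI than with 0 but was not graded beyond that, with 22.3, 30.4, 32.8 and 28.2 CPM, and it followed no order in SHF AngII, with 22.4, 28.3, 23.5 and 40.4 CPM.

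**Figure D5:**
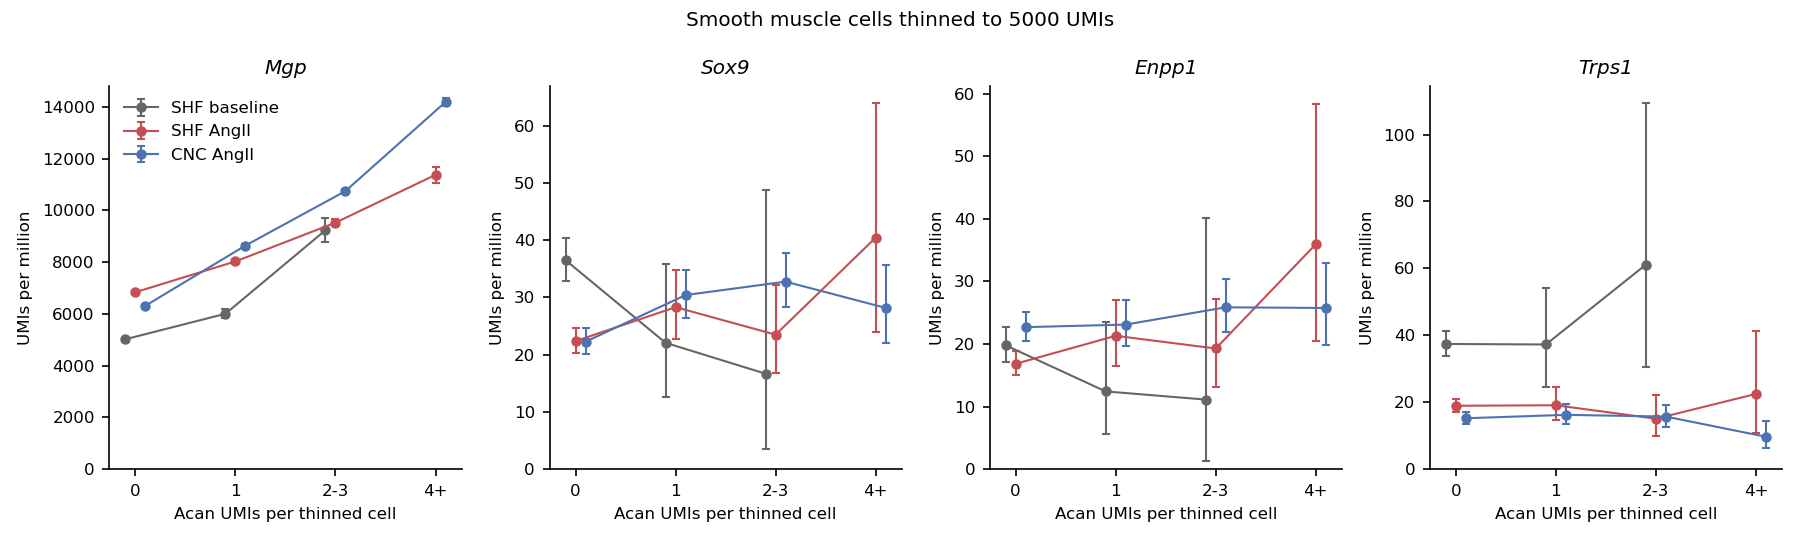
Level of Mgp, Sox9, Enpp1 and Trps1 (CPM) in smooth muscle cells thinned to 5000 UMIs, by the number of Acan UMIs in the cell; colours are libraries, bars are 95% Poisson intervals, and bins under 20 cells are not drawn. Mgp is higher at each step in every library, reaching 14190 CPM in CNC AngII cells with 4 or more Acan UMIs, whereas the other 3 genes follow no such order over all steps.

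The fourth comparison set fibroblasts against smooth muscle cells within each library. Mgp, Runx2 and Cytl1 were higher in fibroblasts in all 3 libraries. Members called numbered 5 at baseline and 4 in each AngII library, beside 21.5%, 22.4% and 21.4% of all genes with a mean of at least 10 CPM, a mean that only 4, 2 and 2 of these members reached. The log2 ratios were 1.26, 1.80 and 1.57 for Mgp and 5.34, 2.15 and 3.81 for Cytl1. With the stricter cell filter the baseline Mgp ratio was 0.53 and no longer called. Runx2 was 8.58-, 6.19- and 9.28-fold higher, from at most 46 smooth muscle UMIs in a library, which are not read as expression. With 10 CPM added the Runx2 log2 ratios were 0.59, 0.33 and 0.46, short of the fold used. Sox9 was called in SHF baseline alone, at 1.08 against 0.48 and 0.27 in the AngII libraries, and with the stricter cell filter these were 0.35, 0.08 and -0.13. Enpp1 was lower in fibroblasts each time, at -0.35, -0.37 and -0.22, and Trps1 was at 0.58, -0.17 and 0.12. Chad was at 5.29, -1.57 and 2.56, and the SHF AngII value became 1.44 when smooth muscle cells with Dcn were left out. TMM scaling moved the median of all genes by -0.24, -0.20 and -0.22, under which Sox9 was no longer called in SHF baseline and Trps1 in CNC AngII turned negative.

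Some pairs of members were found together in the same cells and others were not, here counted at 5000 UMIs per cell. In baseline fibroblasts, 63.6% of the 55 Chad-positive cells had a Cytl1 UMI against 13.0% of the others, 54.5% against 18.3% a Trps1 UMI, and 41.8% against 21.6% a Sox9 UMI. Cytl1-positive fibroblasts held Sox9 in 38.7% against 19.2% of cells and 22.7% against 12.4% in the SHF libraries, with intervals that did not overlap. In CNC AngII the shares were 21.2% of 52 cells (11.1% to 34.7%) and 11.6% (9.33% to 14.1%), which overlap. The Mgp level of Cytl1-positive fibroblasts was also higher, at 20319 against 10880 CPM, 59377 against 27081 and 65431 against 28188. Enpp1-positive fibroblasts likewise held more Mgp, at 19434 against 11710 CPM, 46233 against 27417 and 47926 against 28818. In smooth muscle cells the Sox9-positive ones held more Mgp, at 6567 against 4982 CPM, 9761 against 7046 and 13691 against 7722. For Trps1-positive smooth muscle cells the order varied, with 5945 against 4994, 7771 against 7235 and 7734 against 8305 CPM. Sox9-positive fibroblasts held more Mgp in both SHF libraries, at 13546 against 11808 and 35056 against 27792 CPM, but not in CNC AngII, at 30136 against 30786. In smooth muscle cells Sox9 did not go with Trps1, found in 17.8% against 16.8%, 7.77% against 9.02% and 6.82% against 7.24% of cells. Nor did it go with Enpp1, at 7.47% against 9.17%, 9.02% against 8.14% and 10.3% against 10.7%, and all these intervals overlapped. The 16 Chad-positive fibroblasts of SHF AngII held Sox9 in 12.5% of cells against 12.9%.

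The genes most alike to a member were those with the largest log2 ratio between cells with and without its UMI, taking the smallest of the 3 libraries. For Sox9 in smooth muscle cells these were Timp1 (0.70), Thbs1 (0.66), Cd109 (0.53), Tob1 (0.44) and Dcn (0.40). For Enpp1 there they were led by Timp1 (0.21) and Mgp (0.19), and for Trps1 by Lum (0.68) and Itih4 (0.26). In fibroblasts Spp1, the gene of osteopontin, led for Sox9 (0.78), Trps1 (1.65) and Enpp1 (1.01). Before thinning, the 5 fibroblasts richest in Spp1 held 62.5%, 48.5% and 46.8% of its fibroblast UMIs. The part of these few cells in the Spp1 ratios was not tested. Tnfrsf11b, the gene of osteoprotegerin, led for Cytl1 (1.77), before Serpine2 (1.75), Spp1 (1.72), Comp (1.65) and Clu (1.59). Cytl1 (1.16) and Comp (1.09) followed Spp1 for Trps1, and Frzb (0.67) and S100a4 (0.55) followed it for Sox9. For Enpp1 the next were Lamc3 and Tnfrsf11b (both 0.88) and Mgp (0.73). Runx2, Mgp, Chad and, in smooth muscle cells, Cytl1 had fewer than 50 cells with or without a UMI in a library and gave no such list.

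A list of 48 other genes of cartilage and mineral formation was set beside the members. Between the SHF libraries, 22 of them were at a mean of at least 10 CPM in smooth muscle cells and thus tested. Of these, 2 were higher in SHF AngII and 1 lower, beside 2.86% and 3.53% of all genes. Spp1 went from 0.54 to 143 CPM, Scx from 39.7 to 187, and the BMP receptor gene Bmpr1a from 155 to 76.1. The list's median log2 ratio was 0.02, beside -0.10 over all genes. In fibroblasts 27 were tested, with 5 higher and 5 lower, beside 4.64% and 10.7% of all genes. The median there was -0.19 beside -0.21. Higher were Col11a1, a minor cartilage collagen, from 2.43 to 40.6 CPM, the lubricin gene Prg4 from 81.3 to 390, the phosphatase gene Alpl from 34.4 to 74.3, Spp1 from 60.0 to 250 and Tnfrsf11b from 54.4 to 152. Lower were Matn2, Fmod, Msx1, Bmp2 (from 20.5 to 5.01 CPM) and Smpd3. The genes called thus lay in both directions.

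Between the AngII libraries, 22 genes of the list were tested in smooth muscle cells, with 0 higher and 1 lower in CNC AngII. Of all genes 0.443% were higher and 0.355% lower. The lower gene of the list was Comp, from 19.5 to 9.01 CPM. The 5 richest cells held 67.7% of the SHF AngII Comp UMIs, and the log2 ratio of -1.04 became 0.32, not called, without the 5 richest of each library. In fibroblasts 26 were tested, with 3 higher and 0 lower, beside 0.457% and 0.152% of all genes. The 3 higher were Comp (117 to 238 CPM), Spp1 (250 to 561) and Tnfrsf11b (152 to 367). All of them also stood among the genes most alike to Cytl1. Without the 5 richest cells Comp fell just short of the fold used there (0.94), and Spp1 (1.21) and Tnfrsf11b (1.21) were still called. For the Acan split 22, 22 and 19 genes of the list were tested, and 0.349%, 0.371% and 0.192% of all genes were called. In smooth muscle cells with Acan, Comp was called higher in SHF baseline (1.05) and SHF AngII (2.08). No gene of the list was called lower. Neither Comp call was kept without the 5 richest cells, at -0.11 and 0.32. Spp1 was called higher with Acan in SHF AngII (2.49) and CNC AngII (1.21), and both calls were kept, at 2.30 and 1.67.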

How the data were processed

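Per the labels' protocols, sorted live cells were captured with 10x 3′ v3 chemistry, and the submitters' processing notes name fastp, STAR 2.5, HTSeq 0.6.1 and build mm10 without their roles. The authors deposited raw UMI counts per gene and barcode for each library, with no normalization. Both AngII files list 32285 genes and the baseline file 18760 under older names, of which 518 were matched by a unique synonym and 13 repeated names were left out. Barcodes under 500 genes or over 10% mitochondrial UMIs were dropped, and doublets marked by Scrublet (scanpy 1.11.5) were left out: 2.39%, 2.01% and 2.65% of SHF baseline, SHF AngII and CNC AngII.

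A gene's UMIs in all cells of a type were divided by the total UMIs of those cells (CPM). Ratios are log2((CPM + 1)/(CPM + 1)). Exact Poisson, Clopper-Pearson and conditional binomial intervals are at 95%. No test was made, since each group had 1 library. Shares were compared after thinning to 5000 UMIs, which left out 45, 59 and 82 smooth muscle cells and 717, 136 and 73 fibroblasts. A count of 0 allows up to 3 counts. The calculation was tested on simulated counts.

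The members, the list of 48 related genes and the gene markers were chosen with earlier results of these data known. Genes named are the members, the listed genes with the largest ratios or past 2-fold, and the 5 most alike to a member with at least 50 cells. Alternatives covered cell filters, cell assignment, doublets, depth, totals, TMM scaling (edgeR 4.0.16), pseudocount and fold, and 2 more, also applied to the related genes called, were chosen after seeing the data (without the 5 richest cells, and smooth muscle cells without Dcn). Coordinates are GENCODE annotation on GRCm38, the assembly also called mm10.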

Additional observations from a re-analysis of the deposited data

Results flagged for a closer look

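Chad differed in opposite directions between the cell types when SHF AngII was set against SHF baseline, lower in fibroblasts and higher in smooth muscle cells, a difference of -6.86 on the log2 scale. For Cytl1 the difference was -3.19, but its smooth muscle ratio of 0.36 became -0.28 without cells with Dcn and -0.82 with the stricter cell filter, the same direction as in fibroblasts. Between CNC AngII and SHF AngII the differences between fibroblasts and smooth muscle cells were 4.13 for Chad and 1.66 for Cytl1, with fibroblasts higher in CNC AngII and smooth muscle cells lower. Stricter cell assignment turned the fibroblast ratios to -1.68 for Chad and -0.45 for Cytl1, and the smooth muscle ratio of Cytl1 was 0.61 without cells with Dcn. Each is a difference of log2 ratios from 1 library per group and was not tested. The smooth muscle values of Chad came from 3 of 4649 SHF AngII cells.

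A signal outside the cell types compared was seen for Mgp in the endothelial cells of CNC AngII, at 9469 CPM. There were 33 such cells, and 5 of them held 80.4% of the Mgp UMIs. Enpp1 stood at 77.4 CPM in the 1450 leukocytes of CNC AngII, with a UMI in 47.7% of them. The SHF libraries held only 11 and 17 leukocytes, with 1 and 0 Enpp1 UMIs.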

How the results depend on the processing

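No paired analysis was possible because each group had 1 library, whose replicate number is only a name. Of 1057 ratios of members recomputed under alternatives, 607 moved by less than their interval, 441 by more, and 9 were called ratios that turned direction. Of the ratios not called, 44 values, of all 7 members, changed sign. The number of members past 2-fold between SHF AngII and SHF baseline in smooth muscle cells, 2 as reported, was 1 in cells of 5000 to 20000 UMIs, after thinning, as a mean of per-cell shares, with TMM scaling and without the 5 richest cells, and 0 with 10 CPM added or without cells with Dcn. The fibroblast count of 4 stayed within 1.5 times under every alternative run. Between CNC AngII and SHF AngII the smooth muscle count of 1 was 2 without cells with Ptprc or Pecam1 and at 1.5-fold, and 0 with 10 CPM added, without the 5 richest cells or without Dcn. The fibroblast count of 1 was 0 with the stricter cell filter, 10 CPM added or without the 5 richest cells, and 2 at 1.5-fold. For the Acan split, the baseline count of 1 was 0 without cells with Ptprc or Pecam1, after thinning, with 5% of the library profile subtracted, with 10 CPM added or without Dcn, and 2 with the split made on thinned counts. The SHF AngII count of 2 was 1 in cells of 5000 to 20000 UMIs, after thinning or with 10 CPM added, 4 at 1.5-fold, and 0 without the 5 richest cells or without Dcn. The CNC AngII count of 1 was 0 without cells with Ptprc or Pecam1, in cells of 5000 to 20000 UMIs, with 10 CPM added, without the 5 richest cells or without Dcn, and 3 at 1.5-fold. Of fibroblasts against smooth muscle cells, the baseline count of 5 was 2 with the stricter cell filter and 3 with 10 CPM added, and the AngII counts of 4 were both 2 with 10 CPM added.

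The called ratios of members that turned direction were all of Chad or Cytl1. Chad in SHF AngII over baseline smooth muscle cells became -0.070 without Dcn, and in CNC AngII over SHF AngII fibroblasts -1.68 with stricter cell assignment and -0.94 without the 5 richest cells. In the Acan split of SHF AngII, Chad became -0.0351 and Cytl1 -0.22 without the 5 richest cells, and Chad -0.25 without Dcn. Chad in fibroblasts over smooth muscle cells became 0.82 and 1.44 in SHF AngII under these same changes, and -0.33 in CNC AngII with stricter cell assignment. Of the related genes called, Comp turned direction. Between the AngII libraries in smooth muscle cells it became 0.32 without the 5 richest cells and 0.75 without Dcn, and in the Acan split -0.11 in SHF baseline without the 5 richest cells and -0.0005 in SHF AngII without Dcn. Beyond the number of cells or genes that each alternative leaves, the cause was not tested. Few counts limit the reading of Runx2, with at most 46 smooth muscle UMIs in a library, and few positive cells limit that of Chad.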

Other observations

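Cells outside the described types held much of the Chad and Cytl1 signal. In SHF baseline they stood at 176 CPM of Chad and 613 CPM of Cytl1, above the 46.1 and 304 CPM of fibroblasts. In SHF AngII the values outside were 16.2 and 88.9 CPM, and in CNC AngII 6.30 and 81.7 CPM. For both genes the baseline library was highest outside the described types too. Mgp outside stood at 13118, 25097 and 18362 CPM. Endothelial cells, at most 49 per library, held 13.1%, 14.3% and 22.0% of all Cytl1 UMIs.

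Thinned to 5000 UMIs, the median Mgp level of smooth muscle cells with Acan was 23.5, 19 and 20 UMIs per cell in SHF baseline, SHF AngII and CNC AngII, and of those without Acan 16, 16 and 12. The median thus differed least in SHF AngII, the library in which the ratio of the sums moved furthest with depth.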
